A study of Mus musculus with 16 samples.

Results

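Focal adhesions are the contacts through which a cell grips the matrix around it, and 44 mouse genes of this machinery were followed here in whole brain RNA, of the 55404 genes in the deposited table. They were taken by name and comprised 19 integrin subunits and 25 intracellular focal adhesion genes, and the integrins that brain microglia carry, Itgb2, Itgal and Itgb5, were also looked at apart. The values came from 8 Tecpr2 ki/ki mice and 8 wt/wt mice, with a library of total RNA from the brain of each mouse. Ki/ki mice are homozygous for the L1152fs knock-in (L1152Yfs in the study's methods), a frameshift that CRISPR/Cas9 editing of C57BL/6J zygotes placed in Tecpr2, while both Tecpr2 copies are unedited in wt/wt mice. All were untreated males of 5 months. The frameshift is constitutive, so every cell type of the brain carried it.

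Integrins are pairs of an alpha and a beta subunit that span the cell membrane. They bind laminin, fibronectin, vitronectin, collagen or cell surface ligands outside, and most take up talin and kindlin on the short beta tail inside. Clustered integrins recruit focal adhesion kinase (FAK, the product of Ptk2) and its relative Pyk2 (Ptk2b), which act with the kinases Src and Fyn on the scaffolds paxillin (Pxn) and p130Cas (Bcar1), and through Crk, Dock1 and the Git1, Arhgef7 and Pak1 module on the actin cytoskeleton. In brain these genes serve the contact of astrocytes and vessels with the basement membrane, the guidance and plasticity of neurites, and the adhesion and phagocytosis of microglia, whose integrins of the beta 2 class are shared with blood leukocytes.

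The ends of the beta subunits are shown because most integrins meet the intracellular genes there. The last 99 bases of the coding sequence, stop codon included, are given for the 6 beta subunits. They come from the GENCODE M21 transcripts of the GRCm38 assembly, with the codons of the NPxY or NPxF motif in capitals. Sites of the form NxxY without the proline, which the ends of Itgb3 and Itgb5 hold, were not searched and stay in lower case.
Itgb1: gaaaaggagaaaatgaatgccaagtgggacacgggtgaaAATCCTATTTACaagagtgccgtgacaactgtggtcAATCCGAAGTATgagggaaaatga
Itgb2: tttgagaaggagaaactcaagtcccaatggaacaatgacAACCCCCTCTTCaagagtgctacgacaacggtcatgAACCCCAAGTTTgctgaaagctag
Itgb3: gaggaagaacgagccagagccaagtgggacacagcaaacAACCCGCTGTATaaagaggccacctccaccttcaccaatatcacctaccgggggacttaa
Itgb5: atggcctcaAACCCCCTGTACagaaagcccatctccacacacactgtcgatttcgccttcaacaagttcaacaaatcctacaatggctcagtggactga
Itgb4: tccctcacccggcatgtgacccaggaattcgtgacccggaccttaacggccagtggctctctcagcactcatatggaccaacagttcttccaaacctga
Itgb8: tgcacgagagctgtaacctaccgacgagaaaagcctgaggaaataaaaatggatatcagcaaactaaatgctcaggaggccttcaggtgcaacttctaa
The motif occurred 2 times in the ends of Itgb1 and Itgb2, as NPxY in the former and as NPxF in the latter, and 1 time in those of Itgb3 and Itgb5. It was not found in these windows of Itgb4 and Itgb8. The coding sequence of Itgb4, 1818 codons long, held 1 match outside the window, and that of Itgb8 held 0. Among 21504 protein-coding genes with a complete reading frame, 0.893% held the motif in their last 60 codons, read in frame on the coding strand.

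The deposited values are normalised and rounded to whole numbers, and their totals per mouse lay between 11964284 and 12252324. The library factors that rounding leaves visible among low values implied 9.23 to 15.4 megareads on genes per mouse. Tecpr2 itself checked the labels, at 274 to 320 in ki/ki and 928 to 1002 in wt/wt mice. Genes of neurons, oligodendrocytes and astrocytes were abundant in every library, as brain tissue gives, but this cannot tell whole brain from a part of it. In bulk tissue, fewer cells of a type and less RNA per cell cannot be told apart.

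The members spanned a wide range of levels, and the integrins lay mostly below the intracellular genes. Levels are compared between genes as the mean normalised value per kb of exon over all 16 mice. The kinases held the highest level, 889 per kb for Pak1, a kinase that Rac and Cdc42 switch on, followed by Ptk2b at 447, Src at 249, Fyn at 220 and Ptk2 at 139 per kb. Among the adaptors, Git1 led at 566 per kb and Pxn was lowest at 62.0. The talin, kindlin and actin linkers lay close together, between 186 per kb for Actn4, an actin cross-linker, and 46.7 per kb for Vcl (vinculin).

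Of the beta subunits, Itgb1, the partner of most alpha subunits, had the highest level at 172 per kb and Itgb3, the beta subunit of the vitronectin receptor, the lowest at 9.14 per kb. Of the alpha subunits, Itgav led at 138 per kb and Itgal was lowest at 1.66 per kb. Itgb8, which with Itgav activates latent TGF-beta, stood at 137 per kb, next to its partner. Of the 12 members with the lowest levels, 11 were integrins. The remaining gene was Ilk, for the integrin-linked kinase, at 0.638 per kb.

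**Figure D1:**
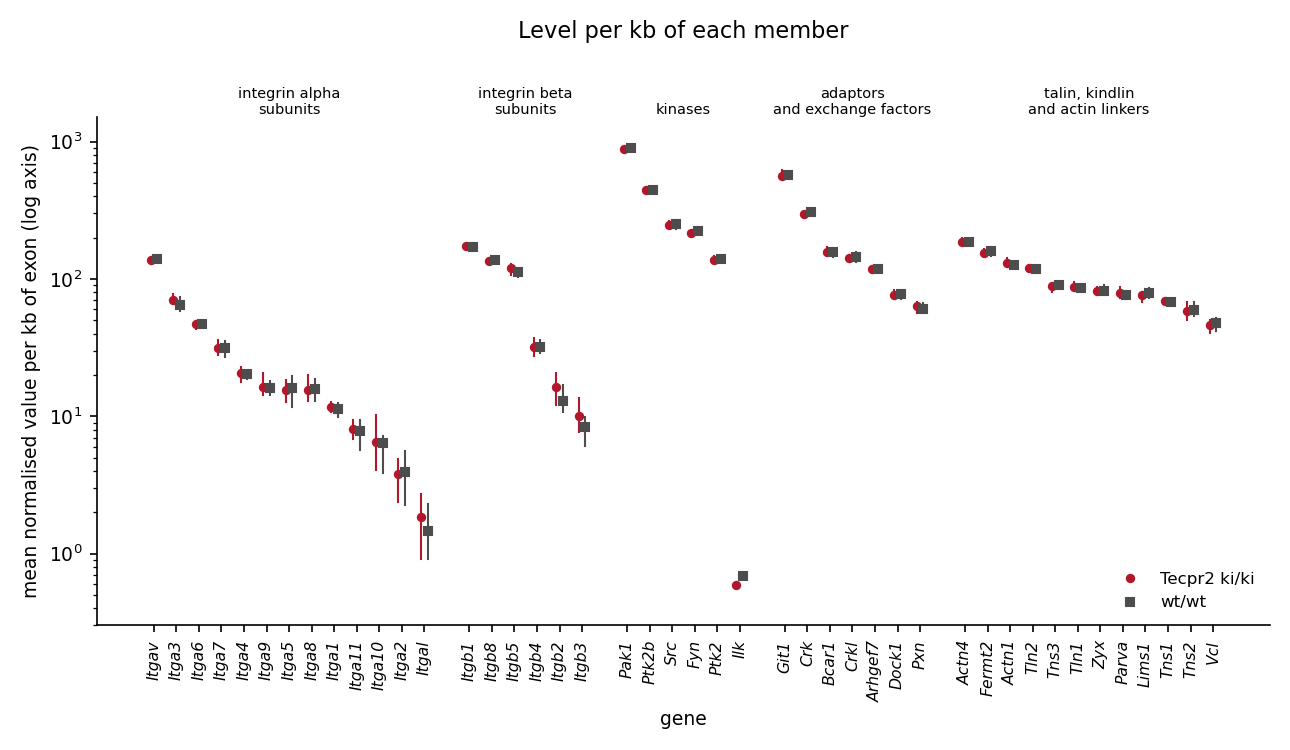
Mean normalised value per kb of exon (log axis) of the 44 members in Tecpr2 ki/ki (circles) and wt/wt mice (squares), by role, with lines from the lowest to the highest mouse. Kinases and adaptors reach up to 889 per kb, most integrins lie far lower, and Ilk lies apart at 0.638 per kb (drawn without lines).

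Ilk was the member that could not be tested. It was listed at 0 to 5 in both genotypes, with a median of 1 in each. The groups overlapped throughout, and its exact two-sided permutation p was 0.830. In the GRCm38 annotation, 89.7% of the exon bases of Ilk are also exon bases of genes on the opposite strand, Taf10 and Rrp8, against 25.5% for Vcl, the next highest member. How the counting used the strand is not given in the sources used here, so the value of Ilk is uncertain, and the part of the overlap was not tested. Itga10 shares 33.5% of its exon bases with an overlapping gene on its own strand.

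Between the genotypes, no member changed at an adjusted p under 0.1 in limma with Benjamini-Hochberg adjustment over 23244 genes (0 of 43 tested), where 0.133% of all tested genes did. The smallest adjusted p of a member in this limma fit was 0.560. At an unadjusted p under 0.01 there was 1 member, Itgb2, against 1.56% of all tested genes. At an unadjusted p under 0.05 there were 4, Itgb2, Itga3, Itgb3 and Itgb5, against 6.08% of all tested genes. All 4 were integrins and all were higher in ki/ki mice, a direction in which 3.07% of all tested genes passed the same limit. No member had groups that did not overlap, against 0.086% of all tested genes. Without a single mouse, the count at an unadjusted p under 0.05 was 2 to 5, and it was 2 (Itga3 and Itgb2) without wt/wt mouse 4 and also without ki/ki mouse 1.

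Taken over all members tested, 21 were higher and 22 lower in ki/ki mice, with a median log2 fold change of -0.0014, beside -0.0010 over all genes tested. Log2 fold changes are ki/ki over wt/wt on the scale log2(value + 1), which understates the change of genes with low values. The integrins split into 11 higher and 8 lower with a median of 0.0143. Without Itgb2, Itgal and Itgb5 the split was 8 and 8, with a median of 0.0005. The intracellular genes split into 10 higher and 14 lower with a median of -0.0067, which was 0.0027 after quantile normalisation and 0.0058 without wt/wt mouse 4.

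**Figure D2:**
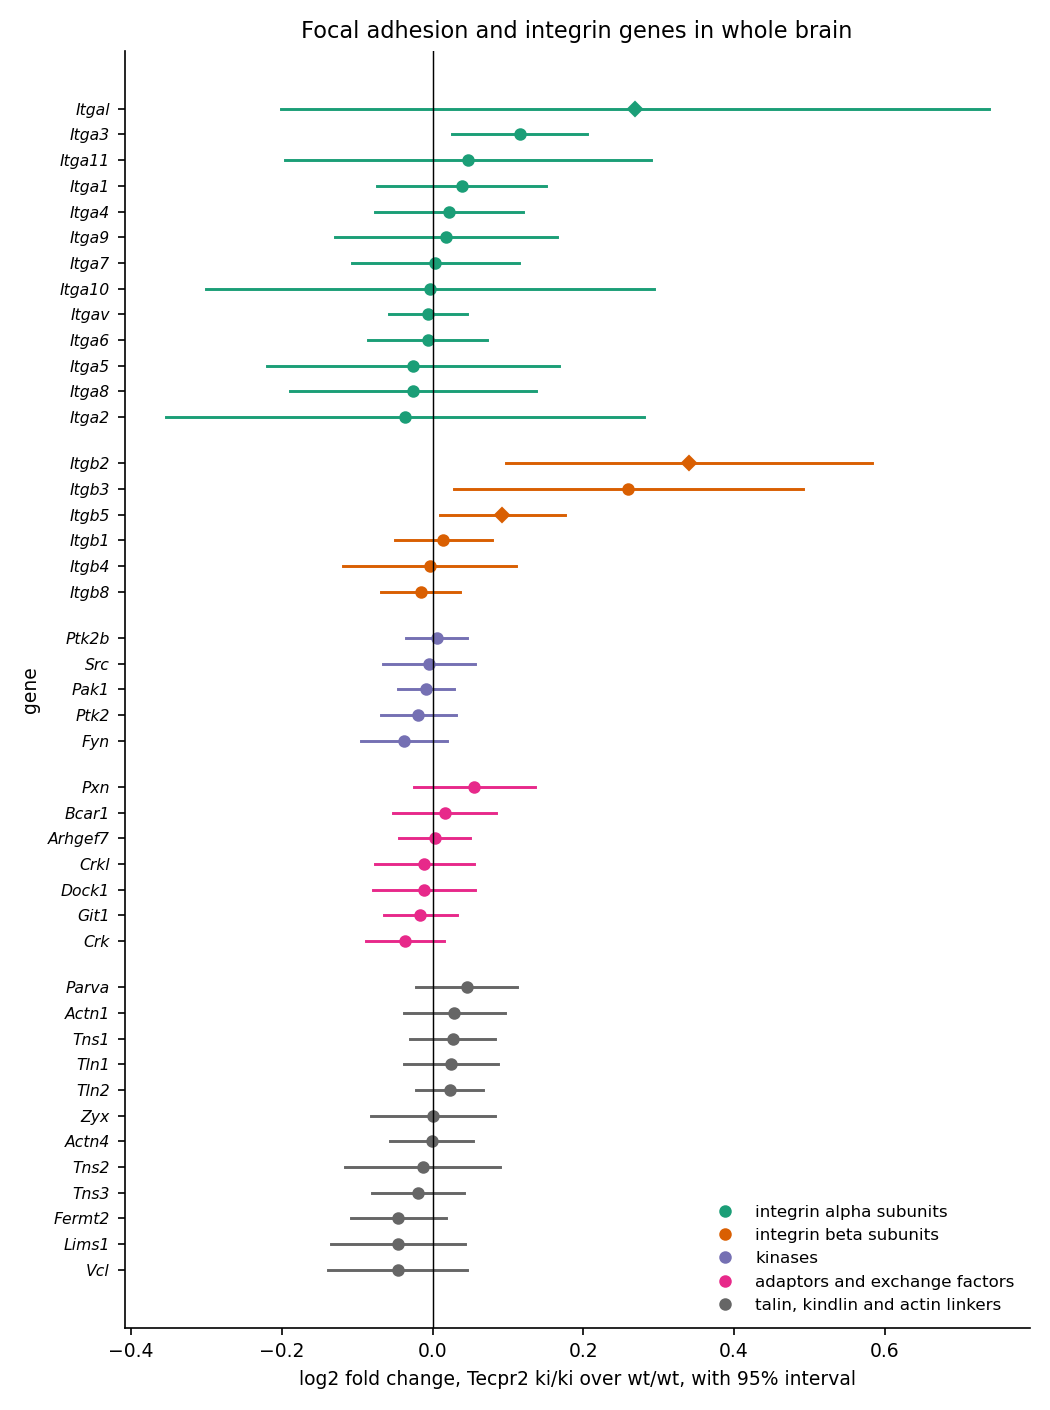
Log2 fold change of the 43 members tested, Tecpr2 ki/ki over wt/wt, with 95% intervals from limma, by role; diamonds mark Itgb2, Itgal and Itgb5. The intervals of Itgb2, Itgb3, Itgb5 and Itga3 lie above 0, while every interval of the kinases, adaptors and linkers includes 0.

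Among the 6 beta subunits, 4 were higher and 2 lower. Itgb2, the beta subunit of the leukocyte and microglial integrins, lies on chromosome 10 from 77530252 to 77565708 (GRCm38, plus strand). Its normalised values were 37, 60, 51, 63, 50, 47, 43 and 51 in ki/ki mice 1 to 8 and 52, 34, 33, 33, 40, 47, 41 and 36 in wt/wt mice 1 to 8. Of the ki/ki mice, 7 were above the wt/wt median and 2 above every wt/wt mouse, so the groups overlapped, with ki/ki mouse 1 low and wt/wt mouse 1 high among its group. The means were 50.3 ± 8.43 (SD, n = 8) and 39.5 ± 6.99 (SD, n = 8), and the log2 fold change was 0.34 (SE 0.12, 95% interval 0.10 to 0.58). The exact two-sided permutation p was 0.0157, and in limma p was 0.0068 before and 0.560 after Benjamini-Hochberg adjustment. The unadjusted limma p rose to between 0.0102 and 0.0236 on leaving out any of the ki/ki mice 2, 3, 4, 5 and 8 and of the wt/wt mice 2, 3, 4 and 8, and to 0.0104 with quantile normalisation.

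Itgb3, which pairs with Itgav in the vitronectin receptor and also serves platelets, lies on chromosome 11 from 104608000 to 104670476 (GRCm38, plus strand). By mouse, it was at normalised values of 80, 58, 45, 57, 64, 63, 57 and 47 in ki/ki mice 1 to 8 and 58, 56, 51, 41, 56, 54, 36 and 40 in wt/wt mice 1 to 8. Ki/ki mouse 1 was the highest of all, and the values of 3 ki/ki mice exceeded every wt/wt mouse. The log2 fold change was 0.26 (SE 0.12), with an adjusted limma p of 0.775 and an exact permutation p of 0.0656. Its partner Itgav, at 1378 to 1549 in ki/ki (median 1516) and 1437 to 1549 in wt/wt mice (median 1492), had a log2 fold change of -0.0061 (SE 0.026), which was 0.0002 after quantile normalisation. The difference between the fold changes of these partners was not tested.

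Itgb5, another partner of Itgav that binds vitronectin, lies on chromosome 16 from 33829665 to 33949338 (GRCm38, plus strand). The normalised values were 458, 382, 439, 416, 426, 423, 433 and 417 in ki/ki mice 1 to 8 and 380, 408, 412, 369, 404, 383, 409 and 416 in wt/wt mice 1 to 8. Of the ki/ki mice, 6 were above every wt/wt mouse, and ki/ki mouse 2 lay within the lower part of the wt/wt range. The means were 424 ± 21.9 (SD, n = 8) and 398 ± 17.6 (SD, n = 8), a log2 fold change of 0.09 (SE 0.041) with an adjusted limma p of 0.775 and an exact permutation p of 0.0210.

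The other beta subunits stayed close to 0. Itgb1, on chromosome 8 from 128685654 to 128733200 (GRCm38, plus strand), was at 664 to 720 in ki/ki (median 706.5) and 661 to 734 in wt/wt mice (median 700), and both ranges were alike. Its log2 fold change was 0.014 (SE 0.032, 95% interval -0.05 to 0.08). Itgb8 was at 1459 to 1563 in ki/ki (median 1503) and 1422 to 1600 in wt/wt mice (median 1540.5), with a log2 fold change of -0.016 (SE 0.026). For Itgb4, the laminin-binding partner of Itga6, it was -0.0039 (SE 0.057).

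**Figure D3:**
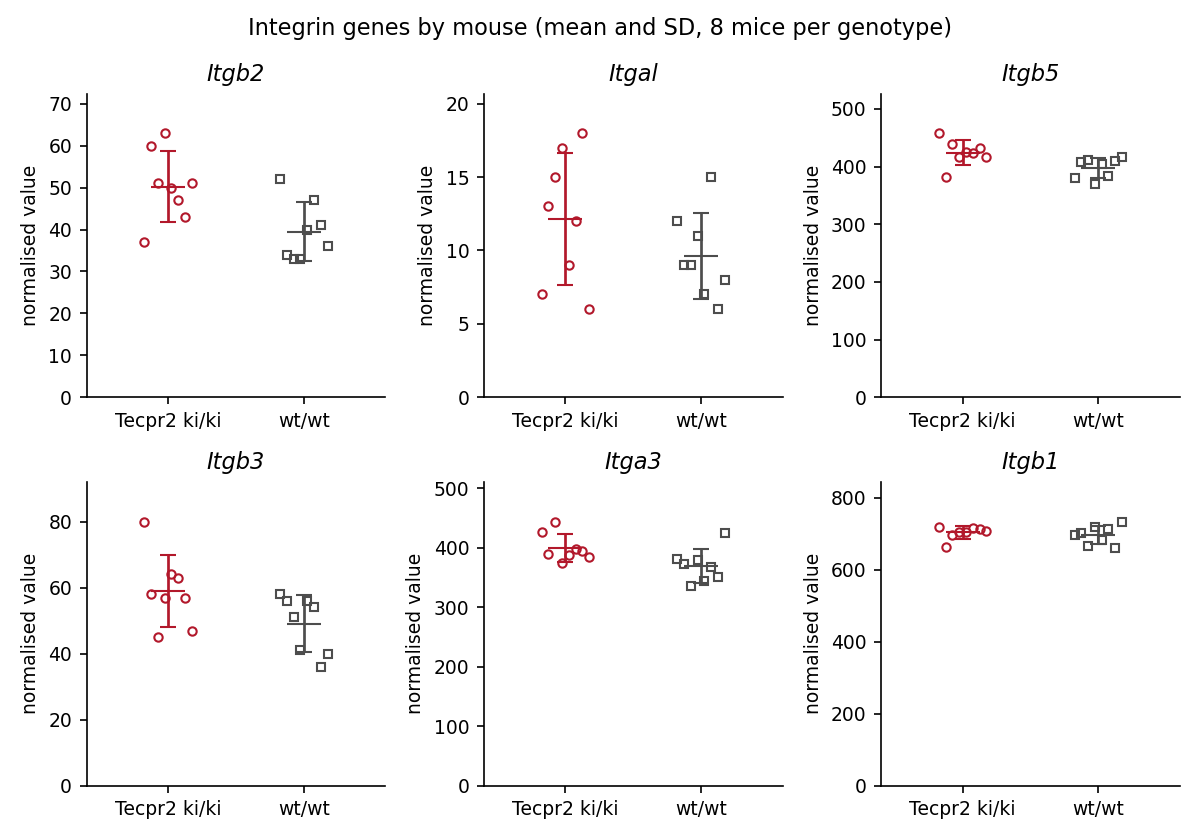
Normalised values of Itgb2, Itgal, Itgb5, Itgb3, Itga3 and Itgb1 in each Tecpr2 ki/ki (circles) and wt/wt mouse (squares), with mean and SD of 8 mice; axes start at 0. The genotypes overlap in every panel, and the ki/ki mean is the higher in all 6, by the least for Itgb1 on the log2 scale (0.014).

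Of the 13 alpha subunits, 7 were higher and 6 lower, with a median log2 fold change of 0.0039. Itga3, a laminin receptor subunit that pairs with Itgb1, lies on chromosome 11 from 95044474 to 95076801 (GRCm38, minus strand). In normalised values, it was at 426, 389, 444, 374, 388, 398, 395 and 385 in ki/ki mice 1 to 8 and 381, 373, 335, 379, 344, 367, 351 and 425 in wt/wt mice 1 to 8. All 8 ki/ki mice were above the wt/wt median, but wt/wt mouse 8 exceeded 6 of them. The means were 399.9 ± 23.3 (SD, n = 8) and 369 ± 28.0 (SD, n = 8), a log2 fold change of 0.12 (SE 0.045) with an adjusted limma p of 0.664 and an exact permutation p of 0.0305. Its partner Itgb1 had a log2 fold change of 0.014, as given above.

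Itgal, the alpha subunit of LFA-1, which pairs with Itgb2 and binds ICAMs, lies on chromosome 7 from 127296260 to 127335138 (GRCm38, plus strand). Normalised values were 7, 13, 15, 17, 9, 12, 18 and 6 in ki/ki mice 1 to 8 and 12, 9, 9, 11, 7, 15, 6 and 8 in wt/wt mice 1 to 8. The groups overlapped widely, with ki/ki mice at both ends of the range. The log2 fold change was 0.27 (SE 0.24, 95% interval -0.20 to 0.74), with an adjusted limma p of 0.917, so that at this level neither a rise nor a fall of moderate size was detectable. The remaining 11 alpha subunits had log2 fold changes between -0.037 (Itga2, SE 0.16) and 0.047 (Itga11, SE 0.12).

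These other alpha subunits cover each class of ligand. Of the collagen receptor subunits, Itga1 was at 200 to 235 in ki/ki (median 214.5) and 184 to 234 in wt/wt mice (median 214), with a log2 fold change of 0.038 (SE 0.056), while Itga2, Itga10 and Itga11 lay under 60 in every mouse and had standard errors of 0.12 to 0.16. Of the laminin receptor subunits, Itga6 was at 392 to 446 and 411 to 446 in turn (log2 fold change -0.0063, SE 0.039) and Itga7 at 228 to 289 and 219 to 287 (0.0039, SE 0.055). The groups shared nearly the same range for both genes. The fibronectin receptor subunit Itga5 was at 63 to 90 in ki/ki and 58 to 97 in wt/wt mice, a difference of -0.026 (SE 0.097) in log2 value. Itga4, the VCAM1 receptor subunit of leukocytes, was at 250 to 318 and 261 to 296, with the same median of 283.5 in both genotypes and a log2 fold change of 0.022 (SE 0.049). For Itga8 and Itga9, which bind nephronectin, tenascin and related ligands, the log2 fold changes were -0.026 (SE 0.082) and 0.018 (SE 0.074).

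The intracellular genes gave narrow intervals around 0. Of 24 tested, none had an unadjusted p under 0.05, and their smallest was 0.156 (Fermt2), which limma with Benjamini-Hochberg adjustment turned into 0.902. For 18 of them the 95% interval of the log2 fold change lay within 0.1 of 0, as it did for 17.1% of all genes tested and for 57.1% of the 6172 genes tested in the same range of mean values. This held for 4 of the 19 integrins, whose median SE was 0.057 against 0.031 for the intracellular genes. All intervals of the intracellular genes together spanned -0.14 to 0.14, which leaves room for changes of about that size in the least precise of them.

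FAK itself, Ptk2, was at 1555 to 1722 in ki/ki (median 1642.5) and 1572 to 1717 in wt/wt mice (median 1669). Both groups covered the same range, and the log2 fold change was -0.019 (SE 0.025, 95% interval -0.07 to 0.03). Ptk2b, the FAK relative abundant in forebrain neurons, was at 3191 to 3444 (median 3286.5) and 3120 to 3437 (median 3318) in turn, a log2 fold change of 0.0055 (SE 0.020). Src was at 1022 to 1157 in ki/ki (median 1063.5) and 1004 to 1167 in wt/wt mice (median 1087.5). Its log2 fold change of -0.0047 (SE 0.031) was 0.0050 after quantile normalisation. Fyn, the Src family kinase of neurons and myelinating cells, was at 920 to 976 in ki/ki (median 951) and 938 to 1043 in wt/wt mice (median 969). With 1 ki/ki mouse above the wt/wt median, Fyn had a log2 fold change of -0.038 (SE 0.029) with an adjusted limma p of 0.902 and an exact permutation p of 0.0811. Pak1 was at 3373 to 3597 in ki/ki and 3395 to 3671 in wt/wt mice, giving a log2 fold change of -0.0087 (SE 0.019).

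Among the 7 adaptors and exchange factors, 3 were higher and 4 lower. Pxn, the paxillin scaffold, had a log2 fold change of 0.056 (SE 0.040), at 460 to 557 in ki/ki (median 522.5) and 461 to 546 in wt/wt mice (median 493.5). Of the ki/ki mice, 7 were above the wt/wt median, yet the ranges nearly coincided, and its exact permutation p was 0.207. Crk, which links tyrosine-phosphorylated scaffolds to Dock1, had a log2 fold change of -0.036 (SE 0.026), at 1304 to 1465 in ki/ki (median 1417) and 1390 to 1508 in wt/wt mice (median 1452.5). Only 1 ki/ki mouse was above the wt/wt median for Crk, and the exact permutation p was 0.136. Its relative Crkl had a log2 fold change of -0.011 (SE 0.033), p130Cas (Bcar1) 0.016 (SE 0.034), the Rac exchange factor Dock1 -0.011 (SE 0.034) and the Rac and Cdc42 exchange factor Arhgef7 0.0028 (SE 0.024). Git1, the scaffold that carries Arhgef7, was at 2592 to 2982 in ki/ki and 2575 to 2905 in wt/wt mice, giving a log2 fold change of -0.016 (SE 0.024).

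The 12 talin, kindlin and actin linkers split into 6 higher and 6 lower. With all mice, the 3 lowest log2 fold changes of all members were those of Vcl at -0.046 (SE 0.046), Lims1 at -0.046 (SE 0.044) and Fermt2 at -0.045 (SE 0.032). Vcl, which binds talin under load, was at 333 to 411 in ki/ki (median 377.5) and 343 to 424 in wt/wt mice (median 394). Lims1, the PINCH adaptor of Ilk, was at 330 to 391 (median 383) and 353 to 420 (median 388.5), and Fermt2, the kindlin of most tissues, at 765 to 853 (median 808.5) and 769 to 881 (median 833). The genotypes overlapped for all 3 genes. Their order rested on single mice, since on leaving out each mouse the log2 fold change was -0.072 to -0.022 for Vcl (nearest 0 without ki/ki mouse 1, where that of Fyn was -0.037), -0.063 to -0.020 for Lims1 (nearest 0 without ki/ki mouse 4) and -0.061 to -0.034 for Fermt2. Talin, the integrin activator, gave log2 fold changes of 0.024 (SE 0.031) for Tln1 and 0.023 (SE 0.022) for Tln2. Parva, the parvin that joins Ilk to actin, was at 740 to 882 in ki/ki (median 804.5) and 722 to 823 in wt/wt mice (median 781), a log2 fold change of 0.045 (SE 0.034). The tensins, which tie beta tails to actin, had log2 fold changes of 0.027 (SE 0.028) for Tns1, -0.013 (SE 0.051) for Tns2 and -0.020 (SE 0.031) for Tns3. For Actn1, 4 ki/ki mice were above every wt/wt mouse, yet the log2 fold change was 0.029 (SE 0.033), and for Zyx, the zyxin of tensed actin bundles, it was 0.00062 (SE 0.041). Actn4, the most abundant of the linkers per kb, was at 1086 to 1220 in ki/ki and 1088 to 1173 in wt/wt mice, giving a log2 fold change of -0.0014 (SE 0.027).

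The 3 microglial integrins were all higher in ki/ki mice, with a median log2 fold change of 0.27, and genes of microglia were higher as well. Of 12 microglia markers, 11 were higher in ki/ki mice, although none had an adjusted limma p under 0.1. P2ry12, the purinergic receptor of resting microglia, was at 244 to 281 in ki/ki and 215 to 251 in wt/wt mice. The summed normalised value of the 12 markers was 2795 to 2976 in ki/ki (median 2904) and 2597 to 2854 in wt/wt mice (median 2722), and none of the 12 was at 0 in any mouse. Each integrin was therefore also set against the mean of the markers within the same mouse, on the log2(value + 1) scale. Relative to the markers, Itgb2 was 0.25 higher in ki/ki than in wt/wt mice (exact permutation p = 0.0541), Itgal 0.18 higher (exact permutation p = 0.453) and Itgb5 0.0046 higher (exact permutation p = 0.904), with n = 8 in each genotype. Of the ki/ki mice, 7 were above the wt/wt median for Itgb2, 5 for Itgal and 4 for Itgb5. The part of microglia in the values of these integrins was not tested beyond this.

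**Figure D4:**
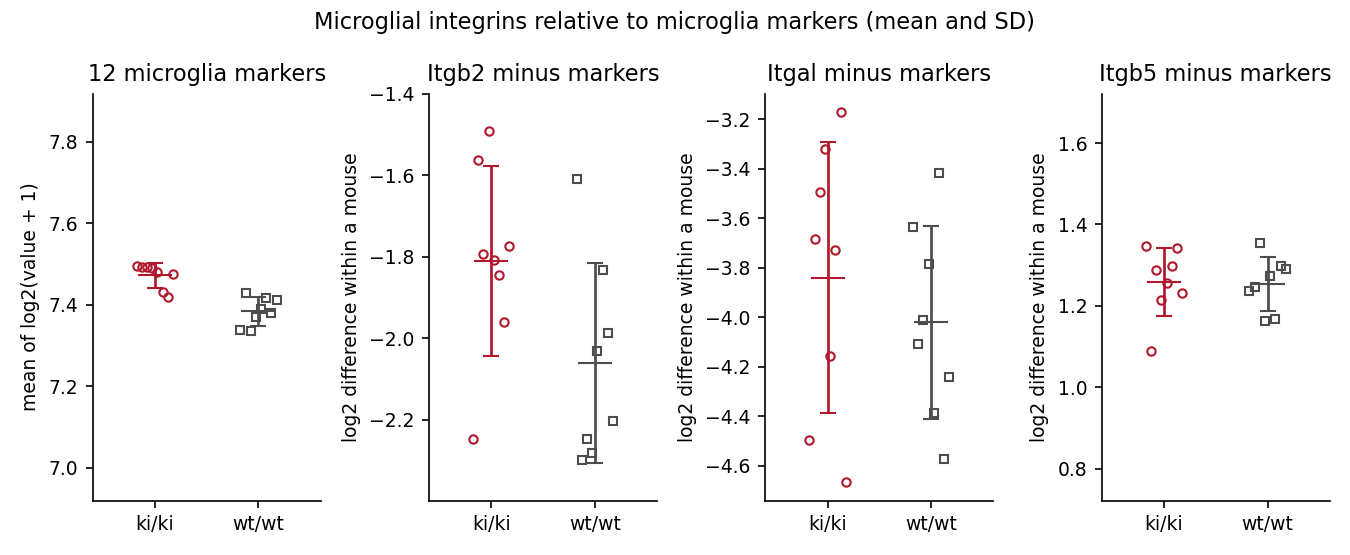
Mean of log2(value + 1) over 12 microglia markers in each mouse (left), and log2(value + 1) of Itgb2, Itgal and Itgb5 minus that mean, in Tecpr2 ki/ki (circles) and wt/wt mice (squares) with mean and SD of 8 mice; axes do not start at 0. The markers are higher in most ki/ki mice, and relative to them the difference is 0.25 for Itgb2 (exact permutation p = 0.0541), 0.18 for Itgal and 0.0046 for Itgb5, with overlapping genotypes.

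Itgb2 and Itgal are also carried by blood leukocytes. Of 15 markers of other leukocytes, 7 had a mean under 1 and 3 could be tested (Cd4, Ccr2 and Flt3), of which 1 was higher and 2 lower. Their summed value was 234 to 295 in ki/ki and 240 to 293 in wt/wt mice. Flt3, with a mean of 198 in ki/ki and 192 in wt/wt mice, and Cd4, with means of 47.3 and 48.6, made up most of this sum, so it says little of the other 13 markers. Of the T cell genes, Cd3d, Cd3e and Cd3g were at 0 to 4 and Cd8a at 0 to 7 over all mice, and of the B cell genes, Ms4a1 was at 0 to 2 and Cd79a at 1 to 7. The neutrophil genes S100a8 and S100a9 were highest in ki/ki mouse 7, at 22 and 21, against medians of 1.5 and 2 in ki/ki mice. That mouse had an Itgb2 value of 43 and the highest Itgal value, 18. The part of these cells in the values of Itgb2 and Itgal was not tested.

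Against Itgb1 in the same mouse, Itgb2 was 0.33 higher in ki/ki than in wt/wt mice on the log2 scale (exact two-sided permutation test, p = 0.0263), with 7 of 8 ki/ki mice above the wt/wt median. Its p was 0.0519 without ki/ki mouse 2, 0.0516 without ki/ki mouse 4 and 0.0508 without wt/wt mouse 4. Over the 4 comparisons within mice, the Benjamini-Hochberg adjusted values of these exact permutation tests were 0.105 for Itgb2 against Itgb1, 0.108 for Itgb2 against the markers, 0.604 for Itgal and 0.904 for Itgb5. This adjustment did not cover the other members, and over all tested genes the adjusted limma p of Itgb2 was 0.560. With a log2 fold change of 0.014 for Itgb1, the comparison against it rested on the same Itgb2 values and adds no separate support.

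Around the members, the rest of the adhesion pathway was examined through lists of other integrin subunits, extracellular ligands and further cytoplasmic adhesion genes. Of 7 other integrin subunits, 5 could be tested and 1 had an adjusted limma p under 0.1, as 0.133% of all tested genes did. That subunit was Itgax (CD11c), an alpha subunit that pairs with Itgb2 and marks activated microglia and dendritic cells. It was at normalised values of 6 to 10 in ki/ki (median 9) and 1 to 7 in wt/wt mice (median 3), and 7 of 8 ki/ki mice were above every wt/wt mouse. The log2 fold change was 1.26 (SE 0.30), with a Benjamini-Hochberg adjusted limma p of 0.0681 and an exact permutation p of 0.000311. Itgax passed the filter on low values, above 5 in 4 or more mice of a genotype, only through the ki/ki mice, where it was higher. Without that filter its adjusted limma p was 0.103. The fold change depended on the pseudocount and was 0.74 with 5 and 1.53 with 0.1 in place of 1. Its adjusted p ranged from 0.0306 to 0.163 when single mice were left out, with values above 0.1 for every mouse but ki/ki mouse 3 and wt/wt mice 2, 6 and 8. Itgam, the alpha subunit of the complement receptor CR3 and also a partner of Itgb2, was at 35 to 60 in ki/ki (median 45) and 32 to 50 in wt/wt mice (median 39.5), with a log2 fold change of 0.15 (SE 0.12) with an adjusted limma p of 0.903.

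All 38 extracellular ligand genes, among them laminins, collagens, fibronectin and tenascins, could be tested. Of these, 18 were higher and 20 lower, with a median log2 fold change of -0.0065, and none changed at an adjusted p under 0.1. The smallest unadjusted p among the ligands was 0.0348. Of 49 further cytoplasmic adhesion genes, 48 could be tested, 23 were higher and 25 lower with a median of -0.0024, and none changed at an adjusted p under 0.1. The gene with the smallest p there was Cav1, for the caveolar coat protein caveolin-1, which is abundant in endothelial cells. It stood at 101 to 129 in ki/ki (median 119) and 129 to 150 in wt/wt mice (median 138), so that the groups met at 129 without crossing. The log2 fold change was -0.24 (SE 0.070), with an exact permutation p of 0.000311, and in limma p was 0.00097 before and 0.271 after Benjamini-Hochberg adjustment. The summed value of 10 endothelial markers was 3167 to 3365 in ki/ki and 3102 to 3384 in wt/wt mice, and 3 of these markers were higher and 7 lower.

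**Figure D5:**
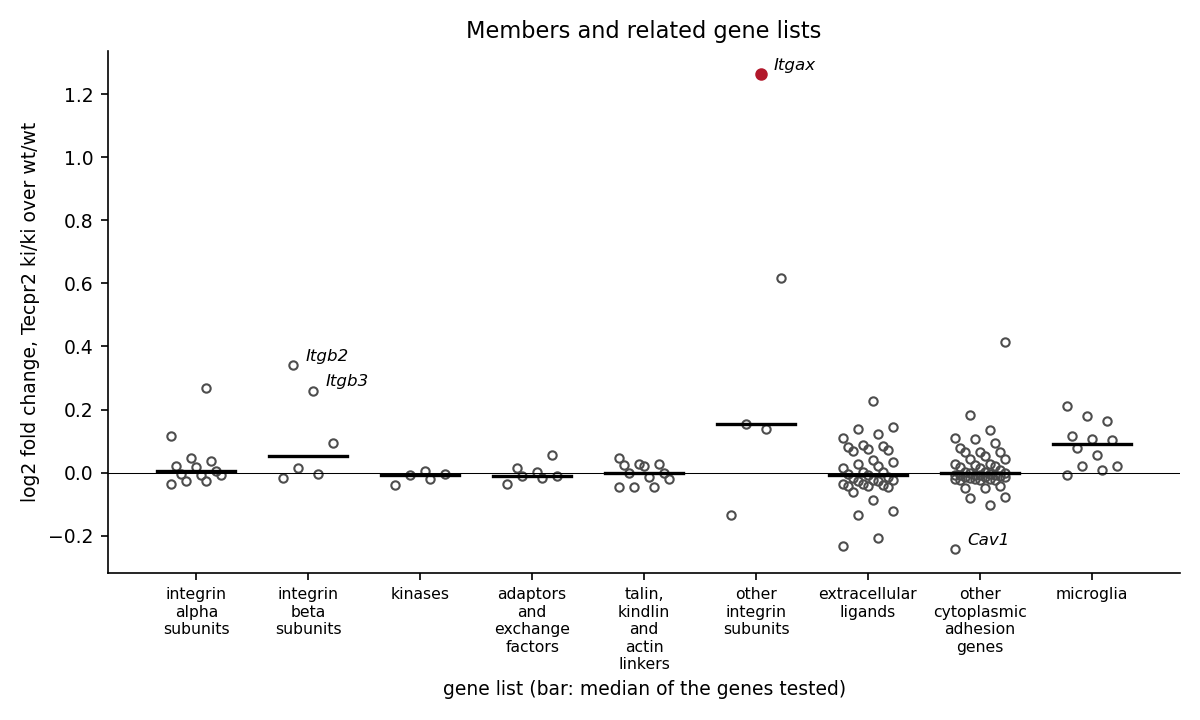
Log2 fold change, Tecpr2 ki/ki over wt/wt, of each tested member by role and of tested genes in lists of other integrin subunits, extracellular ligands, further cytoplasmic adhesion genes and microglia markers; bars are medians, and the filled point has an adjusted limma p under 0.1. Itgax at 1.26 is the filled point, and the kinases, adaptors and linkers cluster near 0. Itgax passed the filter on low values only through the ki/ki mice, and without that filter its adjusted limma p was 0.103.

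Some marker lists of other cell types also differed in these libraries, namely those of astrocytes, neurons and choroid plexus. The sums for oligodendrocytes (exact permutation p = 0.782), pericytes and smooth muscle (0.978), fibroblasts and meninges (0.956) and border macrophages (0.878) differed little. The summed value of 10 astrocyte markers was 59965 to 62309 in ki/ki and 56401 to 59965 in wt/wt mice, with Gfap, Aqp4 and Slc1a2 at an adjusted limma p under 0.1. That of 10 neuron markers was 65582 to 68136 and 65724 to 70369 in turn, with 9 of 10 lower in ki/ki mice. Among them, Gad1 had a log2 fold change of -0.087 with an adjusted limma p of 0.0681. The summed value of 6 choroid plexus markers was 4224 to 4858 in ki/ki and 4725 to 5362 in wt/wt mice, with 4 of 6 lower. Of the astrocyte markers, 8 of 10 were higher in ki/ki mice. A single gene made up most of the astrocyte sum, with a mean of 44629 over all mice. The same held for the choroid plexus sum, with a mean of 4225, so both sums say little of the other markers. The part of these cell types in the values of the broadly expressed members was not tested.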

How the data were processed

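Total RNA of whole brain from 8 Tecpr2 ki/ki and 8 wt/wt mice was sequenced as stranded, ribosome-depleted paired-end libraries. The study's methods and processing notes state that the authors trimmed reads with Trim Galore 0.6.10 and cutadapt 3.4, aligned them with STAR 2.7.10b to GRCm39, counted them per gene with summarizeOverlaps and tested with DESeq2 1.40.2. The authors deposited a score per gene and mouse, linear normalised values rounded to whole numbers, whose normalisation is not given in the sources used here. Raw counts were not restored, so no count test was run. The 16 tables of single mice held the same values as the table of all mice.

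Symbols for 52017 of 55404 genes, exon lengths and GRCm38 positions came from GENCODE M21, an earlier build than that of the reads. Genes needed a sum of values over 16 and values above 5 in 4 or more mice of either genotype, which left 23244. They were fitted on log2(value + 1) in limma 3.58.1 (R 4.3.3; eBayes, trend and robust options on) with Benjamini-Hochberg adjustment over all of them. The limma steps and the estimate of library factors were tested on simulated data. Single values were compared by exact two-sided permutation over 12870 relabellings (smallest p 0.000155). Ratios of the variance between mice to counting noise were 1.35 to 2.05 over 120 pairs, so no library appeared more than once. The members and gene lists were chosen with earlier results of these data known. Genes described by value were those with an unadjusted p under 0.05, the 3 highest and 3 lowest fold changes, the microglial integrins, Itgb1 and Itgav. They also included the main kinases and the ends of each role by level per kb. In the pathway lists, they were Itgam, Itgax and genes with an unadjusted p under 0.01. The other members, and the markers of leukocytes, P2ry12, Gfap, Aqp4, Slc1a2 and Gad1, were chosen with their values known. Some markers of the lists are not reported here by themselves. Alternatives were pseudocounts of 0.1 and 5, equal library totals, quantile normalisation, no filter, the replicate number as a block, no robust variance and leaving out each mouse. Python 3.11.15 with numpy 2.4.6, pandas 2.3.3, scipy 1.17.1 and matplotlib 3.10.9 was used.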

Additional observations from a re-analysis of the deposited data

Results flagged for a closer look

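In 86 groups of 8 mice (the 43 members tested, in each genotype), the gap between the outermost mouse and its nearest neighbour was compared with the range of the group, and 2 groups had a mouse that lay apart. Chance gives about 1 in 20 such groups. The Itga10 value of wt/wt mouse 1 was 20, while the other wt/wt mice lay between 31 and 37. The Itgb1 value of Tecpr2 ki/ki mouse 2 was 664, while the other ki/ki mice lay between 697 and 720.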

How the results depend on the processing

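No member reached an adjusted p under 0.1 under any alternative run. The count of members at an unadjusted p under 0.01 was 2 with equal library totals (Itgb2 and Itga3), 0 with quantile normalisation, and 0 to 1 when single mice were left out. Where it was 1, the member was Itgb5 without ki/ki mouse 2, Itga3 without ki/ki mouse 4 or wt/wt mouse 8, and otherwise Itgb2. The log2 difference of Itgb2 against Itgb1 was 0.33 with the replicate block, as without it. There its p was 0.125, from a two-sided test that flips the signs of the differences between same-numbered mice. When single mice were left out the difference was 0.28 to 0.39. That of Itgb2 against the microglia markers was 0.21 to 0.32 when single mice were left out, and its exact permutation p was 0.014 to 0.103, with 0.0159 without ki/ki mouse 1, 0.014 without wt/wt mouse 1, 0.0426 without wt/wt mouse 6 and over 0.05 without any other mouse, such as 0.103 without ki/ki mouse 4. With the replicate block the same sign-flip test gave a p of 0.141 for Itgb2 against the markers. Without the filter on low values the adjusted limma p of Itgax was 0.103. Whether the replicate numbers pair mice is not given in the labels. Deviations of same-numbered mice correlated at -0.038 to 0.149, with 1 pair over 0.1, and 3 ki/ki mice correlated best with their own number. These values did not settle whether the numbers pair mice. The replicate block left the members at an unadjusted p under 0.01 at 1 and changed no other call of the members. Of all genes, 31 had an adjusted limma p under 0.1, against 46 with the replicate block and 20 without the filter on low values. The deposited values limit low genes most, since rounding and counting noise weigh on Itgal and Ilk. The causes of these shifts were not tested.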
